A study of Rattus norvegicus with 9 samples.

Results

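Heat shock chaperones and co-chaperones were followed in the frontal cortex through 9 genes taken by symbol, Hspa4, Hspa5, Hspa8, Hsp90aa1, Hsp90ab1, Hspb1, Hsph1, Dnajb1 and Hspbp1. All 9 were found among the 37209 genes of the count table, and all 9 passed the filter on low counts, as did 16837 genes in all. The genes had been chosen with the values of these same groups known, so their levels and differences between groups are given as a description. No p value is printed for any of them. Counts of the 9 genes past a threshold, with Hspbp1 named where it was called, stand beside the share of all genes and support nothing. The RNA came from 9 male Wistar rats aged 14 weeks, 3 in each of the groups Control, MS and MS+EA. Control litters were left undisturbed until weaning. Pups of the MS and MS+EA groups were kept apart from the dam for 4 h a day from postnatal day (PND) 1 to PND 21. The MS+EA rats later received electroacupuncture (EA), that is, electrical current through needles at the scalp and forehead points Baihui and Yintang, every other day from PND 61 to PND 81. Per the study's methods, all 3 groups were put under isoflurane on the treatment days, and again when the tissue was taken. The tissue is frontal cortex in the labels and prefrontal cortex in the study's methods. A sham EA group is not among the samples analysed here, so needles and current cannot be told apart from each other in these samples, and the number of litters behind each group is not given in the sources used here. Library totals were between 16106381 and 19007907 counts in the Control and MS rats and between 12479905 and 14913736 counts in the MS+EA rats, so every MS+EA library was shallower than every other library.

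Heat shock proteins are molecular chaperones, which hold unfolded or partly folded proteins and help them to reach or regain their shape. Hsp70 proteins bind short exposed stretches of a client in a cycle driven by ATP. J proteins such as Dnajb1 bring clients and set off ATP hydrolysis, nucleotide exchange factors let ADP and the client go, and Hsp90 proteins take over many partly folded kinases and steroid hormone receptors, the glucocorticoid receptor among them. Under proteotoxic stress, the factor Hsf1 binds heat shock elements, which are inverted repeats of the letters GAA, and drives many cytosolic members of the group. Hspa5 (BiP) works in the endoplasmic reticulum instead and answers to the unfolded protein response, for which the endoplasmic reticulum stress element is the classical site. Neurons are known for high constitutive levels of Hsp70 and Hsp90 proteins and for a weak induction of the stress-inducible Hsp70.

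These motifs were looked for in the RefSeq promoter windows of the GRCr8 assembly, which run from 250 bases before to 50 bases after the start of a gene. A window was found for 8 of the 9 genes, and Hsp90aa1 had no entry. The sequences below are shown because they separate the members by the kind of stress element they hold. Each is the 250 bases before the start of the gene, 5′ to 3′ on the strand of the gene, with the stress elements in capitals, the endoplasmic reticulum stress element for Hspa5 and the heat shock elements for the others.
Hspa5 (chr3:38452766-38453015, plus strand): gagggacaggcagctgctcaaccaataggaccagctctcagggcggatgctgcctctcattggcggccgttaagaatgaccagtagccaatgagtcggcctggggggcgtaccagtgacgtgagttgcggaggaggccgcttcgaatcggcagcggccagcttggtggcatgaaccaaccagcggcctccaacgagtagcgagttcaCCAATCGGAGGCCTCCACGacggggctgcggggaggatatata
Hspa8 (chr8:50080264-50080513, plus strand): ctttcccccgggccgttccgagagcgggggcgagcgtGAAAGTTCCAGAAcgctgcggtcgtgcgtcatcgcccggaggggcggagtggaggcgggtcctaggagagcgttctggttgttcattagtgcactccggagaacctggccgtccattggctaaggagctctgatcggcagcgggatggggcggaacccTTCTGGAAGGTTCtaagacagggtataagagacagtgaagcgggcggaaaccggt
Hsph1 (chr12:10427118-10427367, plus strand): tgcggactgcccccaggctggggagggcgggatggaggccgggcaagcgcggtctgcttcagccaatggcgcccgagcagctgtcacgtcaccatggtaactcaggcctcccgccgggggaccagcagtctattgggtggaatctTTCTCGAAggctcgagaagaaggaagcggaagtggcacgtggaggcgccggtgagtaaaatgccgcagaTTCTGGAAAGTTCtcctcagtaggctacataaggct
Hspb1 (chr12:26432302-26432551, minus strand): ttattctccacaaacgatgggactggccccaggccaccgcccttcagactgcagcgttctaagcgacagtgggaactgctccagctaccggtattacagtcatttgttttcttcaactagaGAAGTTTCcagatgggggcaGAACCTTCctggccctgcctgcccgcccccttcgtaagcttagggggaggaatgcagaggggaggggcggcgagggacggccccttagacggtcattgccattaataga
Dnajb1 (chr19:41431142-41431391, minus strand): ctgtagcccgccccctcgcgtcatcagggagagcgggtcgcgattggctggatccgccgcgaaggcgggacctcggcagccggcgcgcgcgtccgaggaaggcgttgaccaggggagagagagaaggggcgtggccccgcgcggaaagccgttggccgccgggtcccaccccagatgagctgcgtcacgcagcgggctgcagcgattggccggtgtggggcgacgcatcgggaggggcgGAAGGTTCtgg

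The endoplasmic reticulum stress element was searched as CCAAT followed by CCACG with 9 bases of any kind between them, on both strands. Of the 8 windows only that of Hspa5 held it, 43 bases before the start, and 0.0657% of all 33469 windows did. The heat shock element of 3 units was searched as GAANNTTC followed by NNGAA on both strands, where N is any base, and was found in the windows of Hspa8 and Hsph1, against 0.798% of all windows. Hspa8 held it at 213 and at 55 bases before the start, and Hsph1 at 36 bases before the start. The shorter form of 2 units, GAANNTTC or TTCNNGAA, is contained in the longer form and was present in 4 of the 8 windows, those of Hspa8, Hspb1, Hsph1 and Dnajb1, against 15.9% of all windows. The CCAAT box, which also forms the first letters of the endoplasmic reticulum stress element, was present in 5 of the 8 windows against 37.5% of all, and the GC box GGGCGG in 8 of 8 against 33.1%. No window of the 8 held the letters TATAAA, which 14.2% of all windows did. The windows of Hspa4, Hsp90ab1 and Hspbp1 held none of the stress elements searched. Their start sites lie 2159, 174 and 351 bases inside the outermost start of the gene in the same annotation, so other promoters of these genes were not covered.

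**Figure D1:**
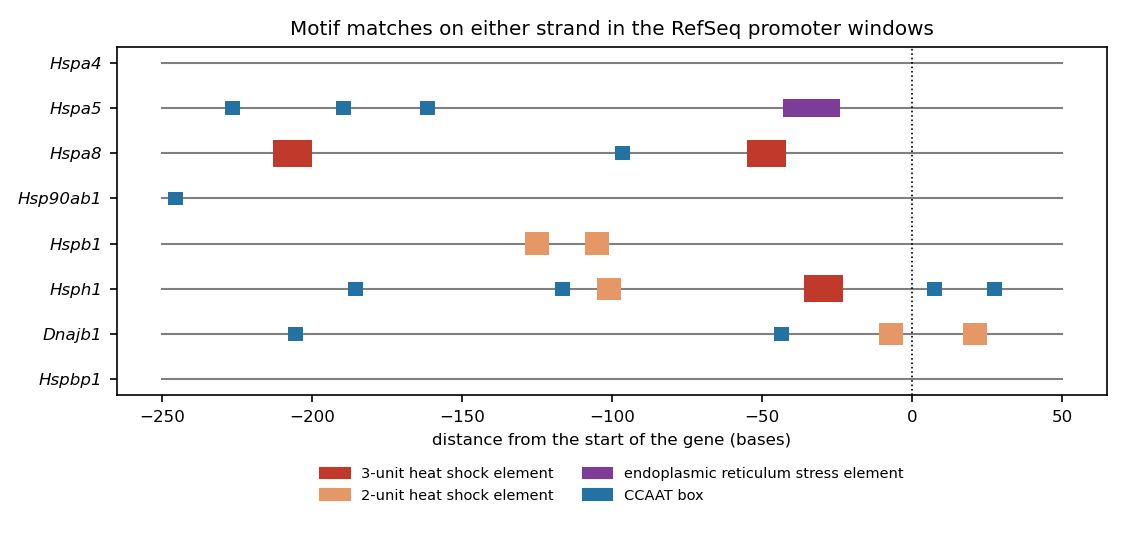
Positions of motif matches on either strand in the RefSeq promoter windows of 8 of the genes, by distance in bases from the start of the gene (dotted line). Hspa8 and Hsph1 carry the heat shock element of 3 units, Hspb1 and Dnajb1 only the form of 2 units, and Hspa5 the endoplasmic reticulum stress element 43 bases before its start.

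Levels are given as CPM, the counts of a gene scaled to a library of 1000000 counts after TMM normalization in edgeR, and differences as edgeR log2 fold changes with their standard errors (SE). CPM is not corrected for the length of a gene and was compared between rats, not between genes. The widest difference among the 9 genes was in Hspbp1, an inhibitor of Hsp70 function, which averaged 43.2 ± 3.46 CPM (SD, n = 3) in Control, 37.9 ± 5.05 CPM (SD, n = 3) in MS and 28.1 ± 2.38 CPM (SD, n = 3) in MS+EA rats. Hspa5 and Hsp90aa1 stood above Control in MS rats, by 21.7% and 20.8%, and Hspa4 stood above Control in MS+EA rats, by 19.7%. The other 5 genes differed by no more than 1.29-fold in any comparison, and 4 of these 5 by at most about 1.20-fold. The fold of 1.20 was that of Hspa8, which stood 20.1% higher in MS+EA than in MS rats, slightly more than the 19.7% of Hspa4. This difference of Hspa8 was smaller without rat C3. The fold of 1.29 belonged to Hspb1, the gene with the fewest reads.

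A gene was called where edgeR's quasi-likelihood test gave an adjusted p (Benjamini-Hochberg, over the 16837 genes) below 0.05 and the groups differed by more than 1.5-fold. Between MS and Control rats 0 of the 9 genes were called, against 0.0238% of all tested genes, and 2 were at an unadjusted p under 0.05 against 10.6%. Between MS+EA and MS rats 0 of the 9 genes were called, against 0.0178%, and 2 were at an unadjusted p under 0.05 against 12.4%. Between MS+EA and Control rats 1 of the 9, Hspbp1, was called against 1.37% of all tested genes, and 2 were at an unadjusted p under 0.05 against 22.5%. Since the genes were chosen on these groups, nothing is read from these counts. With DESeq2 as well, 0 of the 9 were called in the first comparison and 0 in the second. The CPM values of the groups did not overlap for 2 of the 9 genes between MS and Control rats (17.6% of all tested genes), for 1 between MS+EA and MS rats (17.9%) and for 3 between MS+EA and Control rats (25.9%). The median log2 fold change of the 9 genes was 0.11 in MS relative to Control rats, -0.11 in MS+EA relative to MS rats and 0.07 in MS+EA relative to Control rats. Over all tested genes the medians were -0.0014, 0.00059 and 0.0055. The first 2 of these comparisons share the MS rats, and the third shares its groups with both.

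**Figure D2:**
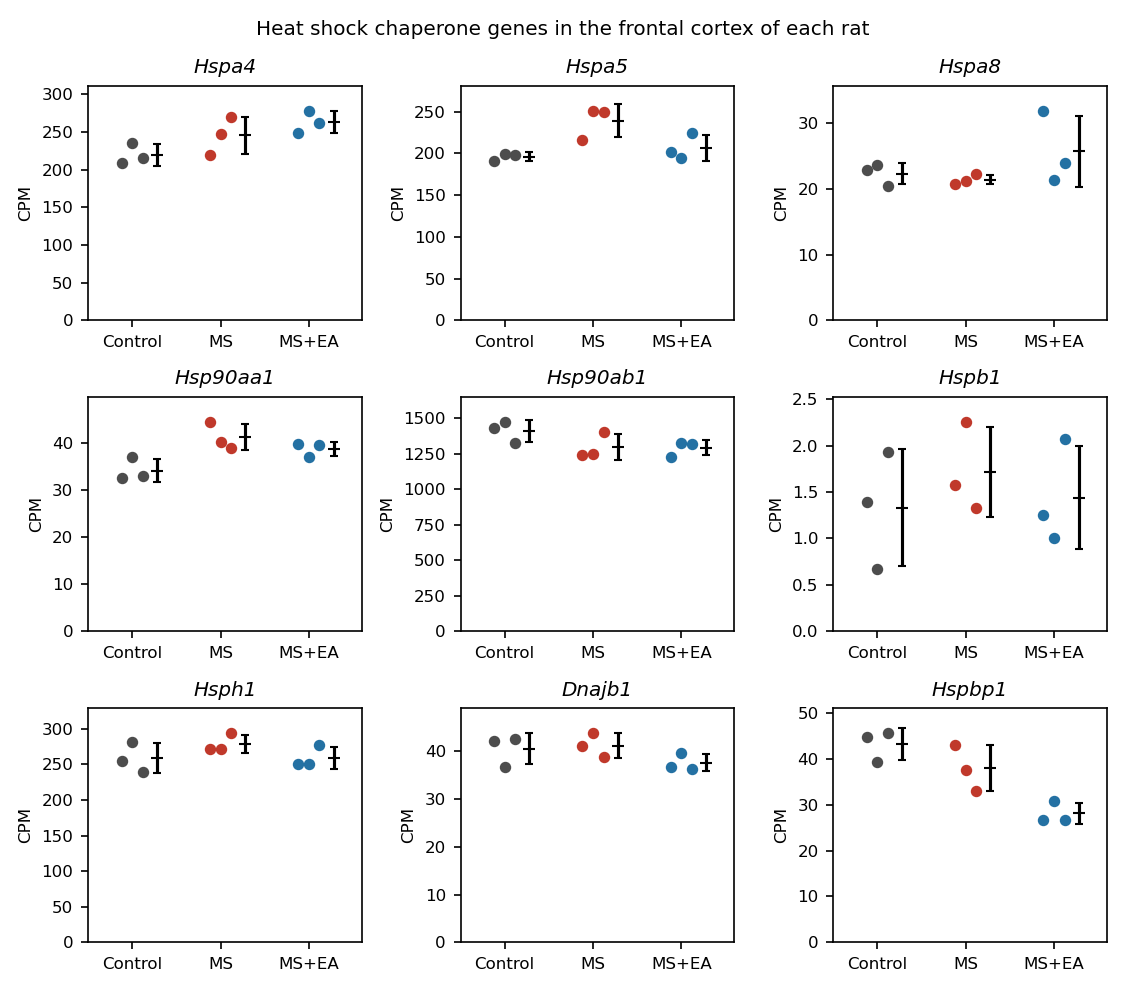
CPM of each of the 9 genes (y axes from 0) in each rat, 1 point per rat, with the mean and SD of the 3 rats of a group as a black bar. Hspbp1 lies between 26.7 and 30.8 CPM in the MS+EA rats, under the lowest value of the other rats, 33.0 CPM, while for Hspa8 a single MS+EA rat at 31.8 CPM stands above the rest.

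Hspa8 encodes Hsc70, the constitutive Hsp70 of the cytosol, which also strips clathrin from synaptic vesicles. It was counted at 22.9, 23.6 and 20.5 CPM in the Control rats A1, A2 and A6, at 20.8, 21.2 and 22.2 CPM in B3, B4 and B6 of the MS group, and at 31.8, 21.4 and 23.9 CPM in the MS+EA rats C3, C10 and C16. The 3 groups overlapped, and rat C3 alone stood apart. C3 also had the lowest sum of neuron markers (5557 CPM) and the highest of oligodendrocyte markers (4261 CPM), whose part in its Hspa8 level was not tested. The log2 fold change in MS+EA relative to MS rats was 0.26 (SE 0.135) with all rats and 0.09 without C3, and in MS+EA relative to Control rats it stood at 0.20 (SE 0.135) with all rats and 0.02 without C3. In MS relative to Control rats it was -0.06 (SE 0.135). These values rest on 301 to 459 reads per rat, few beside the high constitutive Hsp70 levels known for neurons. Hspa8 and the Hsp90 genes are known for near-identical processed copies in mammalian genomes. How reads with several locations were treated is not given in the sources used here, and whether such reads were lost was not tested. The levels of Hspa8, Hsp90aa1 and Hsp90ab1, and their differences between groups, are therefore uncertain.

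Hspa5, the Hsp70 of the endoplasmic reticulum, was highest in the MS group. It measured 190.4, 199.7 and 198 CPM in the Control rats A1, A2 and A6, and 216, 251 and 249.9 CPM in B3, B4 and B6 of the MS group. All 3 MS rats lay above all 3 Control rats, with B3 the nearest to them. Of all tested genes, 17.6% did not overlap between these groups. In the MS+EA rats C3, C10 and C16 it measured 201, 194 and 224 CPM, which overlapped both other groups. Fitted log2 fold changes were 0.28 in MS relative to Control rats (SE 0.0764), -0.21 in MS+EA relative to MS rats (SE 0.0765) and 0.07 in MS+EA relative to Control rats (SE 0.0766). When any single rat was omitted these values stayed between 0.25 and 0.35, between -0.28 and -0.17, and between 0.01 and 0.11.

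Markers of vessels and blood were also higher in every MS than in every Control rat. The mural and blood sums were higher in every MS+EA than in every Control rat too, while the endothelial sums of these groups overlapped. The summed level of 6 of 7 endothelial markers was 131 to 155 CPM in the Control, 163 to 194 CPM in the MS and 140 to 175 CPM in the MS+EA rats. For 7 of 7 mural markers it was 124 to 140.0 CPM, 161 to 297 CPM and 141 to 184 CPM, with the highest value in B4, and for 4 of 4 blood markers 93.7 to 198 CPM, 221 to 304 CPM and 207 to 303 CPM. The part of these cells in the differences of Hspa5 and Hsp90aa1 was not tested.

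Hspa4 and Hsph1 belong to the Hsp110 branch of the Hsp70 family, whose proteins act as nucleotide exchange factors for Hsp70 and hold unfolded clients. Hspa4 measured 208, 236 and 215 CPM in Control, 219.5, 247 and 269 CPM in MS and 249, 277 and 262 CPM in MS+EA rats, each in the order of the rats given above. The MS+EA rats lay above all Control rats (25.9% of all tested genes did not overlap between these groups), and the MS rats spread over the range of both. Fitted log2 fold changes of Hspa4 were 0.16 in MS relative to Control rats (SE 0.0824), 0.10 in MS+EA relative to MS rats (SE 0.0824) and 0.26 in MS+EA relative to Control rats (SE 0.0825). Hsph1, which holds a heat shock element of 3 units, measured 255, 281 and 240.0 CPM in Control, 271, 272 and 294 CPM in MS and 250.2, 249.95 and 277 CPM in the MS+EA rats. Its groups overlapped in every comparison, with log2 fold changes of 0.11 (SE 0.0747), -0.11 (SE 0.0748) and 0.0019 (SE 0.0748) in the same order of comparisons. The highest group mean was that of the MS+EA rats for Hspa4 and that of the MS rats for Hsph1.

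The Hsp90 pair of the cytosol, the inducible Hsp90aa1 and the constitutive Hsp90ab1, stood on opposite sides of the Control mean in the separated rats. As said above of reads with several locations, the levels and differences of both genes are uncertain. Hsp90aa1 had 496 to 760 reads per rat. Hsp90aa1 measured 32.5, 36.8 and 32.8 CPM in Control, 44.3, 40.2 and 38.9 CPM in MS and 39.7, 36.9 and 39.4 CPM in the MS+EA rats. Every MS and MS+EA rat lay above every Control rat, the closest being C10 at 36.92 CPM and A2 at 36.83 CPM. Of all tested genes, 17.6% did not overlap between MS and Control rats and 25.9% between MS+EA and Control rats. Fitted log2 fold changes of Hsp90aa1 were 0.27 in MS relative to Control rats (SE 0.0871), -0.09 in MS+EA relative to MS rats (SE 0.0873) and 0.18 in MS+EA relative to Control rats (SE 0.0877). Hsp90ab1 measured 1433, 1473 and 1326 CPM in Control, 1243, 1246 and 1406 CPM in MS and 1230.4, 1326 and 1319.8 CPM in the MS+EA rats. The groups of Hsp90ab1 overlapped, and its log2 fold changes were -0.12 (SE 0.0725), -0.0071 (SE 0.0726) and -0.13 (SE 0.0726). With each rat left out, and with DESeq2 or other scaling and filters, Hsp90aa1 stayed above Control and Hsp90ab1 below it in both separated groups. These settings reuse the same rats, and the genes were chosen with these groups known. The stable direction is therefore a description and lends no support to a difference.

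Dnajb1 and Hspbp1 act on the Hsp70 cycle from opposite ends. Dnajb1 (Hsp40), a J protein that starts ATP hydrolysis by Hsp70, measured 42.1, 36.7 and 42.6 CPM in Control, 40.9, 43.7 and 38.7 CPM in MS and 36.7, 39.5 and 36.3 CPM in the MS+EA rats. Its groups overlapped, with log2 fold changes of 0.02 (SE 0.0880), -0.13 (SE 0.0888) and -0.11 (SE 0.0888) for MS against Control, MS+EA against MS and MS+EA against Control. Hspbp1 promotes nucleotide release from Hsp70, inhibits its folding activity and restrains the ubiquitin ligase Stub1 (CHIP). It measured 44.7, 39.2 and 45.6 CPM in Control, 43.1, 37.7 and 33.0 CPM in MS and 26.7, 30.8 and 26.7 CPM in the MS+EA rats. The MS+EA rats overlapped neither other group, while the MS rats ranged from inside the Control values, B3, to below them, B4 and B6. Of all tested genes, 17.9% did not overlap between MS+EA and MS rats and 25.9% between MS+EA and Control rats.

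Fitted log2 fold changes of Hspbp1 were -0.19 in MS relative to Control rats (SE 0.109), -0.43 in MS+EA relative to MS rats (SE 0.112) and -0.62 in MS+EA relative to Control rats (SE 0.112), or 0.651 times the Control level. Its reads per rat were 643 to 836 in the Control, 549 to 739 in the MS and 336 to 460 in the MS+EA rats. On omission of single rats the last of these values ran from -0.69 without C10 to -0.57 without A6, and the first from -0.29 without B3 to -0.10 without B6. The shallower MS+EA libraries move with this difference, and their part in it was not tested. In bulk tissue, fewer cells of a type and less RNA per cell cannot be told apart.

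Hspb1 (Hsp27), a small heat shock protein that holds unfolded clients without ATP, was near the lower limit of what these libraries count. It had 26, 11 and 31 reads in Control, 27, 36 and 22 in MS and 18, 15 and 26 in the MS+EA rats. This is 0.671 to 1.93 CPM in Control, 1.32 to 2.25 CPM in MS and 1.01 to 2.07 CPM in the MS+EA rats, and the ranges overlapped in part, with A2 the lowest and B4 the highest rat. The log2 fold changes of 0.36, -0.26 and 0.10 each lay within their SE of 0.416, 0.422 and 0.429. Without A2 the first of these was 0.05 and without A6 it was 0.71, so single rats set its size. Without C16 the second was -0.60 and without B4 it was -0.01, and the third was -0.24 without C16 and 0.46 without A6.

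**Figure D3:**
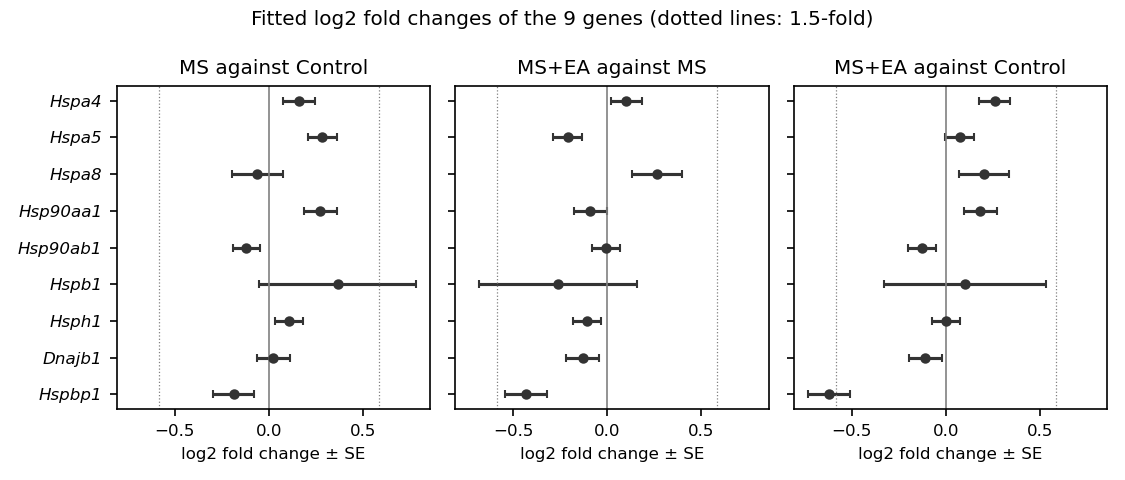
Fitted log2 fold changes of the 9 genes in the 3 comparisons (x axis), with bars of 1 SE and dotted lines at a 1.5-fold difference. Hspbp1 in MS+EA against Control rats, at -0.62, is the only point beyond a dotted line.

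The 9 genes did not vary as a block across the rats. Over the 36 pairs, Pearson's r of log2 CPM over 9 rats ran from -0.82 to 0.72 with a median of -0.10, and 16 pairs were positive. With the group means removed, r ran from -0.83 to 0.77 with a median of -0.20, and 14 pairs were positive. Both genes of a pair share library, depth and scaling, so r is a description only. Dnajb1 and Hspbp1 had r = 0.72 over the rats and also 0.72 with group means removed. Hspa4 and Hspbp1 had r = -0.82 and -0.62. Hspa5 and Hsph1 had 0.70 and 0.53. The Hsp90 pair had -0.60 and -0.19. Hsph1 and Dnajb1, which both hold heat shock elements, had -0.34 over the rats and -0.83 with group means removed.

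**Figure D4:**
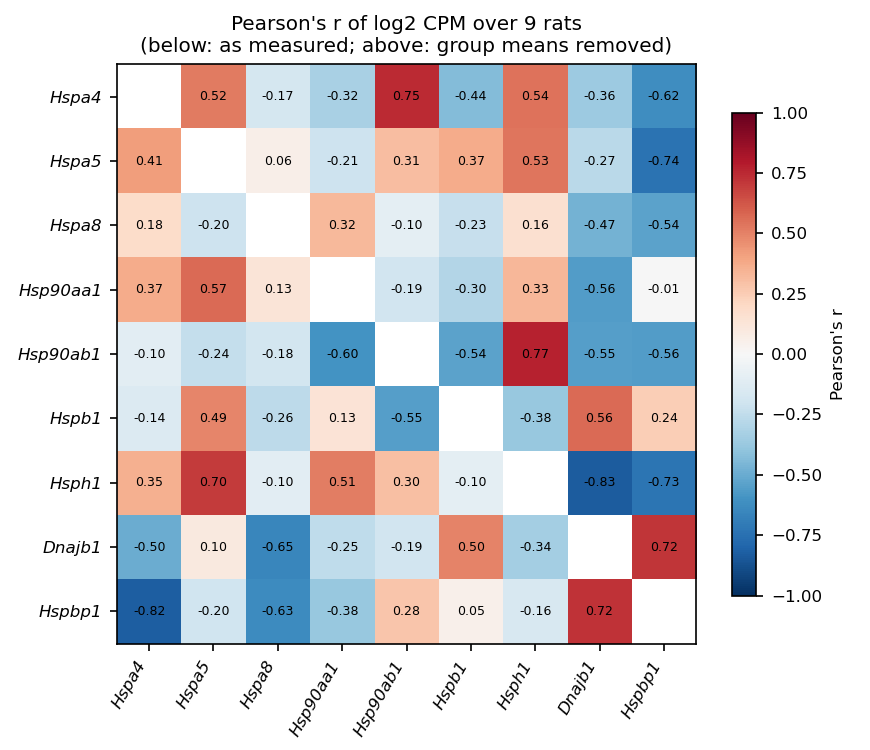
Pearson's r of log2 CPM between each pair of the 9 genes over 9 rats, on a color scale from -1 to 1, as measured below the diagonal and with group means removed above it. Dnajb1 with Hspbp1 is positive on both sides (0.72 and 0.72), and Hspa4 with Hspbp1 negative in both (-0.82 and -0.62).

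The mean standardized profile of the 9 genes was highest in the MS rats B4 and B6, at 0.459 and 0.457 SD, and lowest in the MS+EA rat C10, at -0.319 SD. Among 9722 other tested genes of at least 10 CPM, the 8 most like this profile were Lrrc42, Dnajc10, Calr, Ctsl, Ostc, Serinc3, Sash1 and Pdp1, with r from 0.93 to 0.87 over 9 rats. Dnajc10 (ERdj5) is a disulfide reductase and partner of Hspa5, and Calr (calreticulin) a lectin chaperone, both in the endoplasmic reticulum. The most opposite were Bbs2, Fn3k, Polr3e and Mau2, with r from -0.95 to -0.92. Hspa5 is itself part of this mean profile. Pdp1, Ctsl and Sash1 were also among the genes nearest to Hspa5 alone, and Bbs2 was the most opposite to both. For Hspa5 and Hspbp1, singled out after their values were seen, the nearest genes were Cmtm6 for Hspa5 (r = 0.90) and Brsk2, Vstm2l and Srebf2 for Hspbp1 (r = 0.98, 0.97 and 0.97). Of the 9722 genes, 2 had r of at least 0.9 with the mean profile, 126 with Hspbp1, 157 with Hspa4, 1 with Hspa5 and 2 with Hsp90aa1. How many such partners a typical gene has was not counted, so these numbers are a description over 9 rats.

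Beyond the 9 genes, the wider chaperone network was read from 10 lists with 99 genes, of which 90 passed the filter. Between MS and Control rats 3 of the 90 genes had an unadjusted p under 0.05, which is 3.33% against 10.6% of all tested genes. Between MS+EA and MS rats there were 8, 8.89% against 12.4%, and between MS+EA and Control rats 13, 14.4% against 22.5%. At an adjusted p under 0.05 there were 0 of 90 in each of the first 2 comparisons and 4 of 90 in the third, 4.44% against 5.4% of all tested genes. Of these 4, only Chordc1 was also past the 1.5-fold threshold, against 1.37% of all tested genes. The median log2 fold changes of the 90 genes were 0.03, -0.0023 and 0.02.

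All 4 genes at an adjusted p under 0.05 were Hsp90 co-chaperones, 22.2% of the 18 tested on that list against 5.4% of all tested genes. At an unadjusted p under 0.05 there were 6 of the 18 in the same comparison, MS+EA against Control (33.3% against 22.5%). The lists were chosen with earlier results of these data known, so nothing is read from these shares. Chordc1, a partner of Hsp90 that is itself induced by heat, measured 34.7, 44.0 and 33.9 CPM in Control, 48.6, 53.8 and 56.7 CPM in MS and 52.9, 62.5 and 59.3 CPM in the MS+EA rats. All separated rats lay above all Control rats, where 17.6% (MS) and 25.9% (MS+EA) of all tested genes did not overlap with Control. It rose in MS+EA relative to Control rats, with a log2 fold change of 0.63 (SE 0.110, edgeR adjusted p = 0.0112), and stood 0.50 higher on the log2 scale in MS than in Control rats (SE 0.110, edgeR adjusted p = 0.129) and 0.14 higher in MS+EA than in MS rats (SE 0.109, edgeR adjusted p = 0.644). For MS against Control its adjusted p was 0.00847 with DESeq2 and 0.00452 in edgeR with genes of at least 1 count kept. Chordc1 was past both thresholds in MS+EA against Control rats in 10 of 13 alternatives. Without the Control rat A1 its adjusted p was 0.0646 and its log2 fold change 0.58, and without the Control rat A6 (0.57) or the MS+EA rat C10 (0.58) its fold was under 1.5.

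Ppid (cyclophilin 40), a prolyl isomerase of steroid receptor complexes, rose in MS+EA relative to Control rats, averaging 29.7 ± 3.21 CPM in Control and 39.2 ± 1.66 CPM in MS+EA rats (SD, n = 3 each), a log2 fold change of 0.40 (SE 0.0928, edgeR adjusted p = 0.0303). Fkbp8, a prolyl isomerase anchored at mitochondria, fell, averaging 315 ± 15.8 CPM and 262 ± 4.82 CPM (SD, n = 3 each), a log2 fold change of -0.26 (SE 0.0626, edgeR adjusted p = 0.0341). Sugt1, an Hsp90 adaptor named after its values were seen, rose, averaging 35.8 ± 2.64 CPM and 50.7 ± 6.85 CPM (SD, n = 3 each), a log2 fold change of 0.50 (SE 0.132, edgeR adjusted p = 0.0467). These 3 genes were short of the 1.5-fold threshold, and each was no longer under the adjusted p of 0.05 without any one of several rats. On omission of any single rat the adjusted p ran from 0.0291 to 0.131 for Ppid, from 0.0435 to 0.146 for Fkbp8 and from 0.0245 to 0.158 for Sugt1, the highest in each case without the Control rat A1. The adjusted p was also above 0.05 for Ppid without A6, C10 or C16, for Fkbp8 without A6, B4, C10 or C16, and for Sugt1 without A2, A6, C10 or C16. Ptges3 (p23), which closes the Hsp90 cycle, averaged 117 CPM in Control, 142 CPM in MS and 155 CPM in MS+EA rats, or 0.28 (edgeR adjusted p = 0.422) and 0.41 (edgeR adjusted p = 0.0657) above Control on the log2 scale. The adjusted p of the second difference was 0.0168 with DESeq2, 0.00629 in edgeR with genes of at least 1 count kept and 0.0171 in edgeR without C3. Unc45a, a myosin chaperone, had a log2 fold change of -0.21 in MS relative to Control rats (edgeR adjusted p = 0.377). In MS+EA relative to MS rats the log2 fold change was -0.19 for Stub1, the ubiquitin ligase that Hspbp1 restrains (edgeR adjusted p = 0.322), -0.15 for Fkbp8 (edgeR adjusted p = 0.348) and 0.20 for Ppid (edgeR adjusted p = 0.391).

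**Figure D5:**
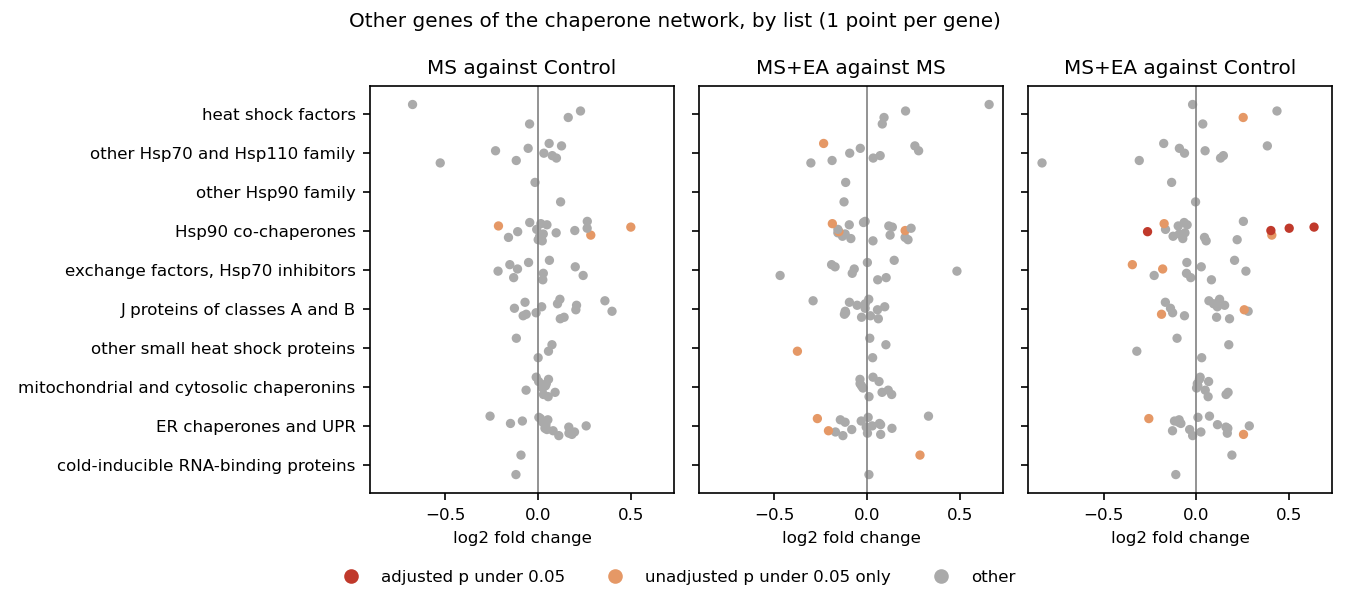
Fitted log2 fold changes (x axes) of the 90 other tested genes of the chaperone network by list, 1 point per gene, in the 3 comparisons. In this edgeR fit the 4 genes at an adjusted p under 0.05 are Hsp90 co-chaperones in MS+EA against Control rats, while with DESeq2 Chordc1 was also under 0.05 in MS against Control rats (adjusted p = 0.00847).

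The other lists held 0 genes at an adjusted p under 0.05 in any comparison. Among the heat shock factors, Hsf1 measured 24.6 to 27.1 CPM in Control, 24.0 to 27.1 CPM in MS and 22.9 to 31.6 CPM in the MS+EA rats. Hsf2 had a log2 fold change of 0.25 in MS+EA relative to Control rats (edgeR adjusted p = 0.128). Of the 4 factors it alone was at an unadjusted p under 0.05 there, 25% against 22.5% of all tested genes. The stress-inducible Hsp70 genes, which are near-identical copies and may share reads, were hardly counted, with 0 or 1 reads per rat for Hspa1a and 2 to 22 reads for Hspa1b. Of 9 tested genes in the rest of the Hsp70 and Hsp110 family, only Hyou1, an exchange factor for Hspa5, was at an unadjusted p under 0.05. This was in MS+EA relative to MS rats, 11.1% of the list against 12.4% of all tested genes. Its log2 fold change there was -0.23 (edgeR adjusted p = 0.307). Hspa9 (mortalin) of the mitochondria had log2 fold changes of 0.08, 0.07 and 0.15 in MS against Control, MS+EA against MS and MS+EA against Control.

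Of the 17 genes of the endoplasmic reticulum and the unfolded protein response, 0 were at an unadjusted p under 0.05 in MS against Control. Over all tested genes the share was 10.6% in this comparison, the one in which Hspa5 stood highest. Of the 17, 14 had a log2 fold change above 0 there, with a median of 0.05. So did 59 of the 90 genes of all lists and 8375 of all 16837 tested genes, and the difference in share was not tested. Hsp90b1 (Grp94), of the Hsp90 family, had a log2 fold change of 0.12 in MS against Control rats (edgeR adjusted p = 0.561). In MS+EA relative to MS rats 2 of the 17 were at an unadjusted p under 0.05, which is 11.8% against 12.4% of all tested genes. Both were lower, namely Atf4, a transcription factor of the integrated stress response, at -0.27 (edgeR adjusted p = 0.236) and the disulfide isomerase Pdia6 at -0.21 (edgeR adjusted p = 0.300). Atf4 measured 99.7, 95.9 and 104 CPM in the Control, 96.7, 103 and 103 CPM in the MS and 78.9, 80.4 and 92.0 CPM in the MS+EA rats, the latter below all others. The MS+EA rats did not overlap with MS rats in 17.9% of all tested genes, nor with Control rats in 25.9%. Relative to Control rats, Atf4 was at -0.26 in MS+EA rats (edgeR adjusted p = 0.0641) and Canx (calnexin), a lectin chaperone, at 0.25 (edgeR adjusted p = 0.143).

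Of the 10 nucleotide exchange factors and Hsp70 inhibitors, 2 were at an unadjusted p under 0.05 in MS+EA against Control rats, which is 20% against 22.5% of all tested genes. Both were lower, the mitochondrial Grpel1 at -0.34 (edgeR adjusted p = 0.0963) and Bag6 at -0.18 (edgeR adjusted p = 0.147). Bag3, which is induced by Hsf1 and feeds clients to autophagy, had log2 fold changes of 0.24 (SE 0.228), -0.47 (SE 0.234) and -0.23 (SE 0.236) in MS against Control, MS+EA against MS and MS+EA against Control. Of the 14 tested J proteins, Dnaja4 and Dnajb4 were at an unadjusted p under 0.05 in MS+EA against Control rats (14.3% against 22.5%), at -0.19 and 0.26 (edgeR adjusted p = 0.207 and 0.195), and Dnaja1, a J protein of the cytosol, had 53 to 84 reads per rat and log2 fold changes of 0.12 (SE 0.202), 0.06 (SE 0.203) and 0.18 (SE 0.203). Of the 4 tested other small heat shock proteins, Hspb8 was at -0.38 in MS+EA relative to MS rats (edgeR adjusted p = 0.355). The 10 chaperonin genes held 0 at an unadjusted p under 0.05 in any comparison, against 10.6%, 12.4% and 22.5% of all tested genes. Their log2 fold changes lay between -0.07 and 0.17, with Hspd1 (Hsp60) at 0.05, 0.0098 and 0.06. Stip1 (Hop), which links Hsp70 to Hsp90, and Fkbp5, a co-chaperone induced by glucocorticoids, had log2 fold changes of 0.0083 and 0.10 in MS relative to Control rats (edgeR adjusted p = 0.982 and 0.826) and of -0.13 and -0.16 in MS+EA relative to MS rats (edgeR adjusted p = 0.483 and 0.633).

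Cirbp and Rbm3, RNA-binding proteins whose levels rise when tissue cools and fall when it warms, were read as a counterpart to the heat shock genes. Cirbp measured 45.7 to 50.9 CPM in the Control, 42.7 to 44.7 CPM in the MS and 41.7 to 46.2 CPM in the MS+EA rats, with a log2 fold change of -0.12 in MS relative to Control rats (edgeR adjusted p = 0.617). Rbm3 measured 34.6 to 43.2, 35.8 to 38.4 and 40.0 to 51.3 CPM, with log2 fold changes of -0.09 in MS relative to Control rats (edgeR adjusted p = 0.812) and 0.28 in MS+EA relative to MS rats (edgeR adjusted p = 0.322).

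Markers of the cells of cortex were present in every library, and 0 listed markers with a row of their own were without a read in all rats. The summed levels of 8 of 8 neuron markers were 6412 to 6588 CPM, 6586 to 7173 CPM and 5557 to 6892 CPM, those of 7 of 7 astrocyte markers 2859 to 3476 CPM, 3060 to 3363 CPM and 2637 to 3507 CPM, and those of 7 of 7 oligodendrocyte markers 2154 to 3290.2 CPM, 1862 to 2956 CPM and 2076 to 4261 CPM. The neuron sums of Control and MS rats overlapped only through B4, at 6586 CPM, and A1, at 6588 CPM, and the part of neurons in the differences of Hspa5 and Hsp90aa1 was not tested. The sums of 7 of 7 microglia markers, 236 to 267, 225 to 254 and 193 to 256 CPM, overlapped between groups, as did those of 3 of 5 choroid plexus markers, which were at most 5.95 CPM outside B4 and 17.7 CPM in B4.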

How the data were processed

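The 9 genes and the 10 lists of other chaperone genes were chosen with earlier results of these data known. Total RNA of the frontal cortex was sequenced on a HiSeq X instrument after removal of rRNA. The authors mapped the reads to Rnor_6.0 with HISAT2 2.0.4, a version taken from the submitters' processing notes, and deposited whole-number counts per gene and rat without normalization. The counting program, its strand setting and its treatment of reads with several locations are not given in the sources used here. Genes were matched by symbol.

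Counts were filtered with filterByExpr (minimum count of 10), normalized by TMM and fitted for all 9 rats with edgeR 4.0.16 in R 4.3.3, with a mean per group and the quasi-likelihood F test. SE was taken as the absolute log2 fold change over the root of F. The study's own EBSeq test is not used here. Its thresholds were kept. Adjusted p values are over the 16837 tested genes. Correlations used log2(CPM + 0.5). The biological coefficient of variation was 12.7%. For a single value, an exact two-sided permutation of 3 against 3 rats cannot go below p = 0.1. In the study's methods the dams were assigned to control or separation, and whether rats of a group shared a litter is not given. All p values, also those of Chordc1, Ppid, Fkbp8 and Sugt1, treat the rats as independent. They set a difference against the spread between these rats and not between litters. Alternatives were DESeq2 1.42.0, its size factors (RLE), filters of at least 10 counts in every rat or of 1 count in all, no fold threshold, and the omission of each rat. Other chaperone genes named are those called, up to 3 per list and comparison with the smallest unadjusted p under 0.05, and a fixed set (Hsf1, Hspa1a, Hspa1b, Bag3, Dnaja1, Hspa9, Hspd1, Hsp90b1, Stip1, Fkbp5, Cirbp and Rbm3). Promoter windows came from RefSeq (GRCr8), a different assembly from that of the counts. Figures were drawn with matplotlib 3.10.9.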

Additional observations from a re-analysis of the deposited data

How the results depend on the processing

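No paired analysis was possible because each pair of groups has fewer than 2 replicate numbers in common, and these belong to separate animals. Of 351 values of the 9 genes under the alternatives, 351 moved by less than 1 SD between rats of a group. With 3 rats a group, the omission of 1 rat can hardly move a group mean further than that SD. The other alternatives reuse the same counts, so nothing is read from this count. For small differences such a move can still be over 1.5 times the value (Hspb1 in MS against Control, 0.36, was 0.05 without A2 and 0.71 without A6). With DESeq2, 68 genes were called in MS against Control rats and 14 in MS+EA against MS rats, in place of 4 and 3. With a filter of at least 1 count, 207, 72 and 469 genes were called in MS against Control, MS+EA against MS and MS+EA against Control, in place of 4, 3 and 230, and 5 of the other chaperone genes had an unadjusted p under 0.05 in the first comparison in place of 3. With at least 10 counts in every rat, 0 genes were called in MS+EA against MS rats by edgeR, with 1951 at an unadjusted p under 0.05. Without the fold threshold, 910 genes passed in MS+EA against Control rats. With each rat left out, between 2 and 22 genes were called in MS against Control rats (2 without A1 or A2, 22 without B3, 9 without C3, 10 without C10), between 1 and 4 in MS+EA against MS rats (1 without A1 or C16) and between 71 and 304 in MS+EA against Control rats (71 without A1, 121 without C10). The other chaperone genes at an unadjusted p under 0.05 then numbered 1 to 10 (10 without B3, 1 without B4, 5 without A2 or C3), 2 to 11 (2 without B4, 5 without B6) and 8 to 21 (8 without A1, 21 without C3). Of the 9 genes, 0 or 1 were called in MS+EA against Control rats (0 without A1, A6 or C3). The median log2 fold change of the 9 genes was between 0.0465 (without A2) and 0.13 in MS against Control rats, between -0.13 and -0.06 in MS+EA against MS rats, and between -0.0502 (without C16) and 0.11 in MS+EA against Control rats. The causes were not tested. Hspb1 and Hspa1b had at most 36 and 22 reads in a rat, and depth was not separated from the spread between rats.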
